A study of Mus musculus with 188 samples.

Results

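The BXH strains are recombinant inbred mice, each a line inbred to homozygosity from a cross of C57BL/6J with C3H/HeJ, so that at most places in the genome a strain carries the allele of one parent or the other. The strains studied here were chosen by the strain written in the labels, which began with BXH for 21 arrays of 10 strains, out of 188 arrays of 94 strains in the series. BXH4/TyJ had 4 arrays, BXH2/TyJ, BXH6/TyJ, BXH7/TyJ, BXH8/TyJ, BXH9/TyJ, BXH19/TyJ, BXH20/KccJ and BXH22/KccJ had 2 each, and BXH10/TyJ had 1. The test between strains used the 20 arrays of the 9 strains with more than 1 array, and all 10 strain means entered the search for genes with separate high and low strains. The parental strains C3H/HeJ (2 arrays) and C57BL/6J (3 arrays) entered neither and are given beside them for comparison.

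Aortic RNA had been measured on Affymetrix HT_MG-430A arrays, in a panel of mouse strains assembled to relate differences in expression to genotype. Values are log2 signals per probe set, a probe set being the group of probes that reads 1 transcript. All mice of the groups used here were labelled as wild-type males aged 16 weeks, fed chow, under a 12 h light-dark cycle and without treatment. The labels do not state whether replicate arrays of a strain were from different mice. The p-values therefore rest on the spread between arrays alone, part of which may be technical, and the small number of arrays limits how precisely each strain mean is known.

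In a recombinant inbred family, a gene whose level is set mainly by an allele close to it is known to take 1 of 2 levels, with each strain resembling one parent. A gene under many influences spreads evenly over strains instead, and a level that both parents share can still be broken up by new combinations of their alleles or by a mutation that arose while a line was bred. The aorta itself is made of smooth muscle, elastic lamellae, an endothelial lining and an outer sheath with fibroblasts, fat, small vessels, nerves and immune cells, so a whole-tissue level also follows the mix of cells collected. In such bulk RNA, fewer cells of a type and less RNA per cell cannot be told apart.

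The defining genes of the aorta were present in every array. Smooth muscle actin, Acta2, had 11.05, 12.36 and 13.13 (lowest, median and highest array, log2 signal), Cnn1 (calponin) 5.64, 8.61 and 10.76, and Eln, the elastin precursor, 7.51, 9.42 and 10.85. Apart from 2 arrays, every array correlated at 0.963 to 0.975 on average with the arrays of other BXH strains across 22327 probe sets, and strain mates correlated at 0.976 to 0.988. These are correlations across genes and not across replicates. Array medians lay between 4.58 and 4.88.

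Of the 21 arrays 2 stood apart, and the counts of calls are also given without them. BXH2/TyJ replicate 1 correlated at 0.876 with its strain mate and at 0.876 with the other strains, and BXH9/TyJ replicate 1 at 0.925 and 0.914. BXH9/TyJ replicate 1 had a thymocyte score of 4.50, against -0.97 to 2.48 in the other 20 arrays, and a cell cycle score of 2.97, against -0.67 to 1.76, a score being the mean of the list's centred log2 levels. BXH2/TyJ replicate 1 had a neutrophil score of 3.53 and a skeletal muscle score of 3.14, while its mate had 1.12 and -3.18. BXH2/TyJ replicate 1 also had low signals of Y-linked genes though labelled male, while Xist lay within the range of the other arrays. Whether its label is right is therefore uncertain, and below this array is shown to disagree with its mate on Lin7c and Glo1. Its Y-linked Eif2s3y signal was 3.60, against 6.73, 7.37 and 8.40 (lowest, median and highest) in the other 20 arrays, Kdm5d was 3.51 against 4.26 to 5.64, and Uty 3.49 against 3.77 to 5.23. Xist, the X-inactivation transcript of female cells, was 4.23 there and 3.52 to 4.34 in the others. The difference between 3′ and 5′ control probe sets is a sign of RNA quality and is larger in degraded RNA. For actin it was 0.93 log2 units in BXH2/TyJ replicate 1, the smallest value, against 1.21 to 2.17 in the other 20 arrays. For Gapdh it was 0.078, against 0.062 to 0.51. BXH10/TyJ, with its single array, had a squamous epithelium score of 3.01, against -0.59 to 1.65, and the highest skeletal muscle score, 3.96. The part of the neutrophil mixture in the results was not tested, and the counts with 3 of the other scores as covariates are given below.

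**Figure D1:**
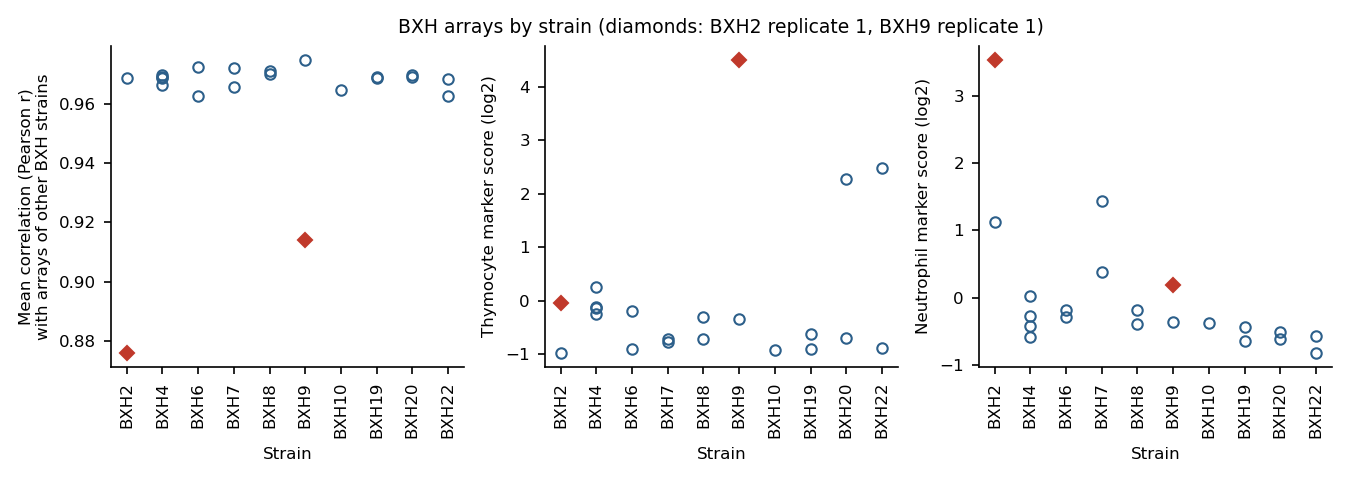
Each point is 1 of the 21 BXH arrays, placed by strain. The panels give the mean correlation with arrays of other BXH strains and the thymocyte and neutrophil marker scores on the log2 scale, and the diamonds mark BXH2/TyJ replicate 1 (0.876) and BXH9/TyJ replicate 1 (0.914), which lie below the 0.963 to 0.975 of all other arrays.

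The first question was which aortic transcripts differ between BXH strains by more than their replicate arrays do. The moderated F test of limma across the 9 strains called 281 of 22327 probe sets at an adjusted p below 0.05 (1.26%), which covered 178 named genes, and 2771 (12.4%) had an unadjusted p below 0.05. Without BXH2/TyJ replicate 1 and BXH9/TyJ replicate 1, which were identified after the data had been seen, 1201 probe sets (5.38%) passed, and 272 of the 281 were among them. When the scores for skeletal muscle, squamous epithelium and thymocytes entered as covariates, 449 passed. The share of the variance of a probe set found between strains, called the intraclass correlation (ICC), had a median of 0.105 over all probe sets and of 0.821 over those called. Of the called probe sets 214 lay above the median level of all probe sets and 67 below it. Their median standard deviation (SD) was 0.63 between strains and 0.27 within strains, on the log2 scale.

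The 20 genes with the largest SD between strains fell into a few kinds. H2-D1, a class I major histocompatibility (MHC) heavy chain that shows peptides to CD8+ T cells, led with a between-strain SD of 2.47 (ICC 0.978, adjusted p = 2.55e-07). Its probe set 1450170_x_at averaged 9.14 in BXH2/TyJ, the highest strain, and 3.42 in BXH20/KccJ, the lowest, while over the 84 other strains of the series the strain means ran from 3.18 (AXB13/PgnJ) to 8.91 (C58/J). Several others encode housekeeping or structural proteins: Pttg1 (securin, which holds back sister chromatid separation; SD 1.89), Rpgrip1 (a ciliary scaffold known from photoreceptors; 1.86), Nme7 (a nucleoside diphosphate kinase family member; 1.82), Tmem87a (a membrane protein of the Golgi; 1.38) and Baiap2l1 (an actin-binding membrane-bending protein; 1.29). Metabolic enzymes and transporters were Pdxdc1 (SD 2.24), Slc15a2 (a peptide transporter; 1.65), Prdx2 (a peroxiredoxin; 1.47), Abhd1 (a hydrolase-fold protein; 1.40), Scd1 (stearoyl-CoA desaturase; 1.37) and Gpt2 (mitochondrial alanine aminotransferase; 1.36). Rbp7, a retinol-binding protein of fat and endothelium, averaged 9.83 in BXH19/TyJ and 4.73 in BXH2/TyJ, with C3H/HeJ at 9.14 and C57BL/6J at 6.68.

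Blood cell genes made up a second group among these 20. Ngp, a neutrophil granule protein, and S100a8 and S100a9, the subunits of calprotectin, had their highest means in BXH2/TyJ (9.27, 8.91 and 8.78) and adjusted p-values of 0.0329, 0.0401 and 0.0344. They were the least stable of the 20: their calls were lost in 27, 25 and 24 of 42 or 43 alternative settings, while 15 of the other genes lost theirs in 2 settings or fewer. Alpha globin, by the Hba-a1 probe set 1417714_x_at, averaged 12.91 in BXH6/TyJ and 8.33 in BXH4/TyJ, and Alas2, the erythroid enzyme that starts haem synthesis, 10.38 in BXH7/TyJ and 6.72 in BXH4/TyJ. On 1417714_x_at the parents differed too, with 12.91 in C3H/HeJ and 9.42 in C57BL/6J (limma contrast, adjusted p = 1.9e-05). The second Hba-a1 probe set, 1452757_s_at, had a much narrower range, from a mean of 12.41 in BXH4/TyJ to one of 13.28 in BXH7/TyJ. Erdr1, annotated as an erythroid differentiation regulator, averaged 10.06 in BXH6/TyJ and 4.09 in BXH4/TyJ although the parents hardly differed (8.79 in C3H/HeJ and 9.02 in C57BL/6J, adjusted p = 0.904), with an adjusted p of 2.27e-08 between BXH strains. Over the 84 other strains Erdr1 ran from 3.91 (BXD20/TyJ) to 11.73 (AXB13/PgnJ). Erdr1 did not follow the erythroid score, which was 1.78 and 0.23 in BXH7/TyJ and -0.74 and -0.63 in BXH22/KccJ. Against the other strains Erdr1 differed by -2.36 to -2.06 in BXH7/TyJ over the alternative settings. In BXH22/KccJ it differed by 2.42 to 3.21, and the cause was not tested.

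Gene lists are described by their counts beside the 1.26% of all probe sets called. The circadian clock list had 4 of 12 members called (median ICC 0.669), the MHC region list 4 of 19, neutrophil granule genes 3 of 12, sterol and fatty acid synthesis 3 of 12, smooth muscle contractile genes 2 of 13 (median ICC 0.602), xenobiotic and antioxidant genes 2 of 16, immediate early and heat shock genes 2 of 10 and erythroid genes 2 of 4. Elastic fibre and matrix genes had none of 17 called with a median ICC of 0.553. Without the 2 arrays that stood apart, where 5.38% of all probe sets were called, the counts were 7 of 12 for the clock, 8 of 19 for the MHC region, 6 of 12 for sterol and fatty acid synthesis, 7 of 13 for smooth muscle, 8 of 17 for elastic fibre and matrix, 4 of 16 for xenobiotic genes and 3 of 11 for adipocyte genes, which had none in all arrays. Cell cycle had 1 member of 10, which was Pttg1, and the proliferation markers Mki67 (adjusted p = 0.678) and Top2a (0.697) did not pass. Macrophage (18 measured), monocyte and dendritic cell (17), interferon response (15), Toll-like receptor (15), squamous epithelium (14), skeletal muscle (13), thymocyte (12), cardiac muscle (9), B cell (8), adventitial fibroblast (7) and brown adipocyte (7) lists had none called in either version.

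Genes with separate high and low strains were sought among the 10 strain means. A probe set was called two-level where the widest gap between neighbouring strain means, with at least 2 strains on each side, was at least 1 log2 unit, at least 4 times the within-strain SD, and wider than the range of the means on either side. This held for 30 of 22327 probe sets (0.134%), 21 of which named 16 genes and 9 of which carried no single gene symbol. Without the 2 arrays that stood apart 45 probe sets (0.202%) and 25 genes met it. All 30 also passed the F test, which the rule makes likely and which is no separate evidence. The rule used the BXH levels themselves, so those levels are a description, and the parental arrays, which it did not use, are the independent readout. Just inside the threshold were Pttg1 probe set 1419620_at (gap 1.19), Snx6 (1.03) and Olig1 (1.01), and just outside it Ssr1 (0.817) and the unnamed probe set 1437783_x_at (0.539).

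The parents lay on opposite sides of the middle of the gap for 26 of the 30 probe sets, with C3H/HeJ high for 14 and C57BL/6J high for 12. Sides were judged by parental means, and the share of all probe sets with opposite parents is not given. Single parental arrays could lie between the sides. The C57BL/6J arrays had 4.17, 4.34 and 5.20 for Pttg1 probe set 1419620_at. Its low strains had at most 4.07 and its high strains at least 4.68. For the unnamed 1455869_at the C57BL/6J arrays had 5.75, 6.04 and 7.59, against at most 4.39 and at least 7.69. The limma contrast of C3H/HeJ with C57BL/6J called 258 probe sets (1.16%), 105 higher (0.47%) and 153 lower (0.685%) in C3H/HeJ, and 22 of the 30 two-level probe sets were among them. The other 4 had both parents low and are described further on.

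H2-D1 had the widest gap, 4.20. Its probe set 1450170_x_at had 7.85, 8.55 and 9.91 (lowest, median and highest) in the 6 arrays of BXH2/TyJ, BXH6/TyJ and BXH7/TyJ, against 3.18, 3.56 and 3.95 in the other 15 arrays, with 8.75 in C3H/HeJ and 3.73 in C57BL/6J. A different H2-D1 probe set, 1451784_x_at, ran the other way, with a mean of 11.36 in BXH8/TyJ and 8.85 in BXH6/TyJ, and with 9.44 in C3H/HeJ and 10.92 in C57BL/6J (adjusted p = 0.00288). The probe sets of this gene therefore disagree, and neither gives a total H2-D1 level. MHC class I genes are near-identical copies of each other and highly polymorphic, so which allele or copy each probe set reads is uncertain.

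Pdxdc1, a gene with a pyridoxal-dependent decarboxylase domain, showed the same opposition within 1 gene. Probe set 1419327_at had 7.08, 7.48 and 7.87 in the 12 arrays of BXH2/TyJ, BXH4/TyJ, BXH6/TyJ, BXH19/TyJ and BXH22/KccJ, against 3.13, 3.34 and 3.80 in the other 9, with C3H/HeJ at 7.25 and C57BL/6J at 3.30. Probe set 1452705_at had 8.40, 8.78 and 9.22 in those other 9 arrays (BXH7/TyJ, BXH8/TyJ, BXH9/TyJ, BXH10/TyJ and BXH20/KccJ), against 3.73, 4.43 and 5.57 in the first 12, with C3H/HeJ at 4.82 and C57BL/6J at 8.58. The groups did not overlap for either probe set, which the two-level rule itself favours, and the strains split at the same place in opposite directions. These probe sets therefore disagree too, and neither of them gives a total Pdxdc1 level. Another Pdxdc1 probe set on the array, 1428200_a_at, was not two-level.

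Pttg1 had 3 two-level probe sets that split the strains alike. The brightest, 1438390_s_at, had 11.12, 11.29 and 11.44 in the 11 arrays of BXH4/TyJ, BXH7/TyJ, BXH9/TyJ, BXH10/TyJ and BXH22/KccJ, against 7.33, 7.73 and 8.75 in the other 10. C3H/HeJ had 7.72 and C57BL/6J 11.50 (adjusted p = 0.00151). The gap between the strain means was 2.96. Nme7 was high in BXH6/TyJ and BXH9/TyJ, with 8.43, 8.81 and 11.03 in their 4 arrays, against 4.61, 5.02 and 5.62 in the other 17 arrays, and C3H/HeJ (8.78) exceeded C57BL/6J (5.16).

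Tmem87a was high in BXH8/TyJ, BXH10/TyJ and BXH22/KccJ, with 7.02, 7.09 and 7.54, against 3.73, 3.94 and 4.68 in the other 16 arrays, next to 7.19 in C3H/HeJ and 4.14 in C57BL/6J. Rpgrip1 was high in BXH6/TyJ, BXH7/TyJ, BXH9/TyJ, BXH10/TyJ and BXH20/KccJ, with 6.84, 7.59 and 8.32, against 3.46, 4.13 and 4.53, next to 4.11 in C3H/HeJ and 7.13 in C57BL/6J. Cap1, an actin-regulating protein bound to adenylyl cyclase, was low in BXH8/TyJ, BXH10/TyJ and BXH22/KccJ alone, with 8.97, 9.27 and 10.32 in the 16 high arrays, against 6.32, 6.58 and 6.94 in the 5 low ones. Cap1 and Tmem87a thus divided the strains identically but in opposite directions, and C3H/HeJ was the high parent for both (Cap1 9.38, against 6.86 in C57BL/6J).

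Cap1 and Tmem87a therefore lay at opposite parental levels in the same strains: where Tmem87a was at the C3H/HeJ level, Cap1 was at the C57BL/6J level. Gpt2 and Prdx2 were another mirrored pair, and in the gene order of the GRCm38.p6 annotation they lie 20 protein-coding genes apart. The Gpt2 probe set 1455007_s_at had 8.94, 9.28 and 9.83 in the 9 arrays of BXH4/TyJ, BXH10/TyJ, BXH19/TyJ and BXH22/KccJ, against 6.27, 7.03 and 7.80 in the other 12, with 8.90 in C3H/HeJ and 7.22 in C57BL/6J. Prdx2 had 6.18, 6.67 and 7.63 in those other 12 arrays, against 3.57, 3.82 and 4.04 in the first 9, with 3.42 in C3H/HeJ and 6.55 in C57BL/6J. For this pair the strains at the C3H/HeJ level of Gpt2 were also those at the C3H/HeJ level of Prdx2. No other pair of two-level genes shared a split with its neighbour in the annotation's order.

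Abhd1 had 5.99, 6.97 and 8.19 in the 14 arrays of the high strains, against 3.96, 4.19 and 4.40 in the 7 arrays of BXH4/TyJ, BXH7/TyJ and BXH10/TyJ, with 6.92 in C3H/HeJ and 4.26 in C57BL/6J. Zfp24, a zinc finger protein, had 5.60, 5.72 and 5.90 in BXH4/TyJ, BXH8/TyJ and BXH19/TyJ, against 3.60, 4.12 and 4.52, with 5.91 in C3H/HeJ and 3.98 in C57BL/6J. Olig1, a transcription factor best known from oligodendrocytes, had 4.73, 5.09 and 5.70 in BXH7/TyJ, BXH19/TyJ and BXH20/KccJ, against 3.01, 3.24 and 3.77, with 5.48 in C3H/HeJ and 3.33 in C57BL/6J. In Snx6, a sorting nexin, BXH4/TyJ and BXH6/TyJ were high with 3.71, 4.15 and 4.68, against 2.54, 2.95 and 3.15, and the high parent was C57BL/6J (2.85 in C3H/HeJ and 4.12 in C57BL/6J, adjusted p = 0.04). Snx6 did not meet the two-level rule without the 2 arrays that stood apart (gap 1.01). Its signals were low, the highest lying within the 4.58 to 4.88 of the array medians. In each of these genes the strain arrays of the high and low sides did not overlap, which the two-level rule itself favours. Each side lay near one parent, whose arrays the rule did not use.

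The strains differed in how often they lay on the C3H/HeJ side of the 26 probe sets whose parents were opposite. BXH19/TyJ did so for 19 (73.1%), BXH6/TyJ for 17 (65.4%) and BXH2/TyJ for 15 (57.7%), while BXH9/TyJ and BXH10/TyJ did so for 6 each (23.1%). Probe sets of 1 gene are counted separately here and share their gene, so these shares are a description. Without the 2 arrays that stood apart, 40 of 45 two-level probe sets had parents on opposite sides, and the range was 27.5% for BXH9/TyJ to 70% for BXH6/TyJ.

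**Figure D2:**
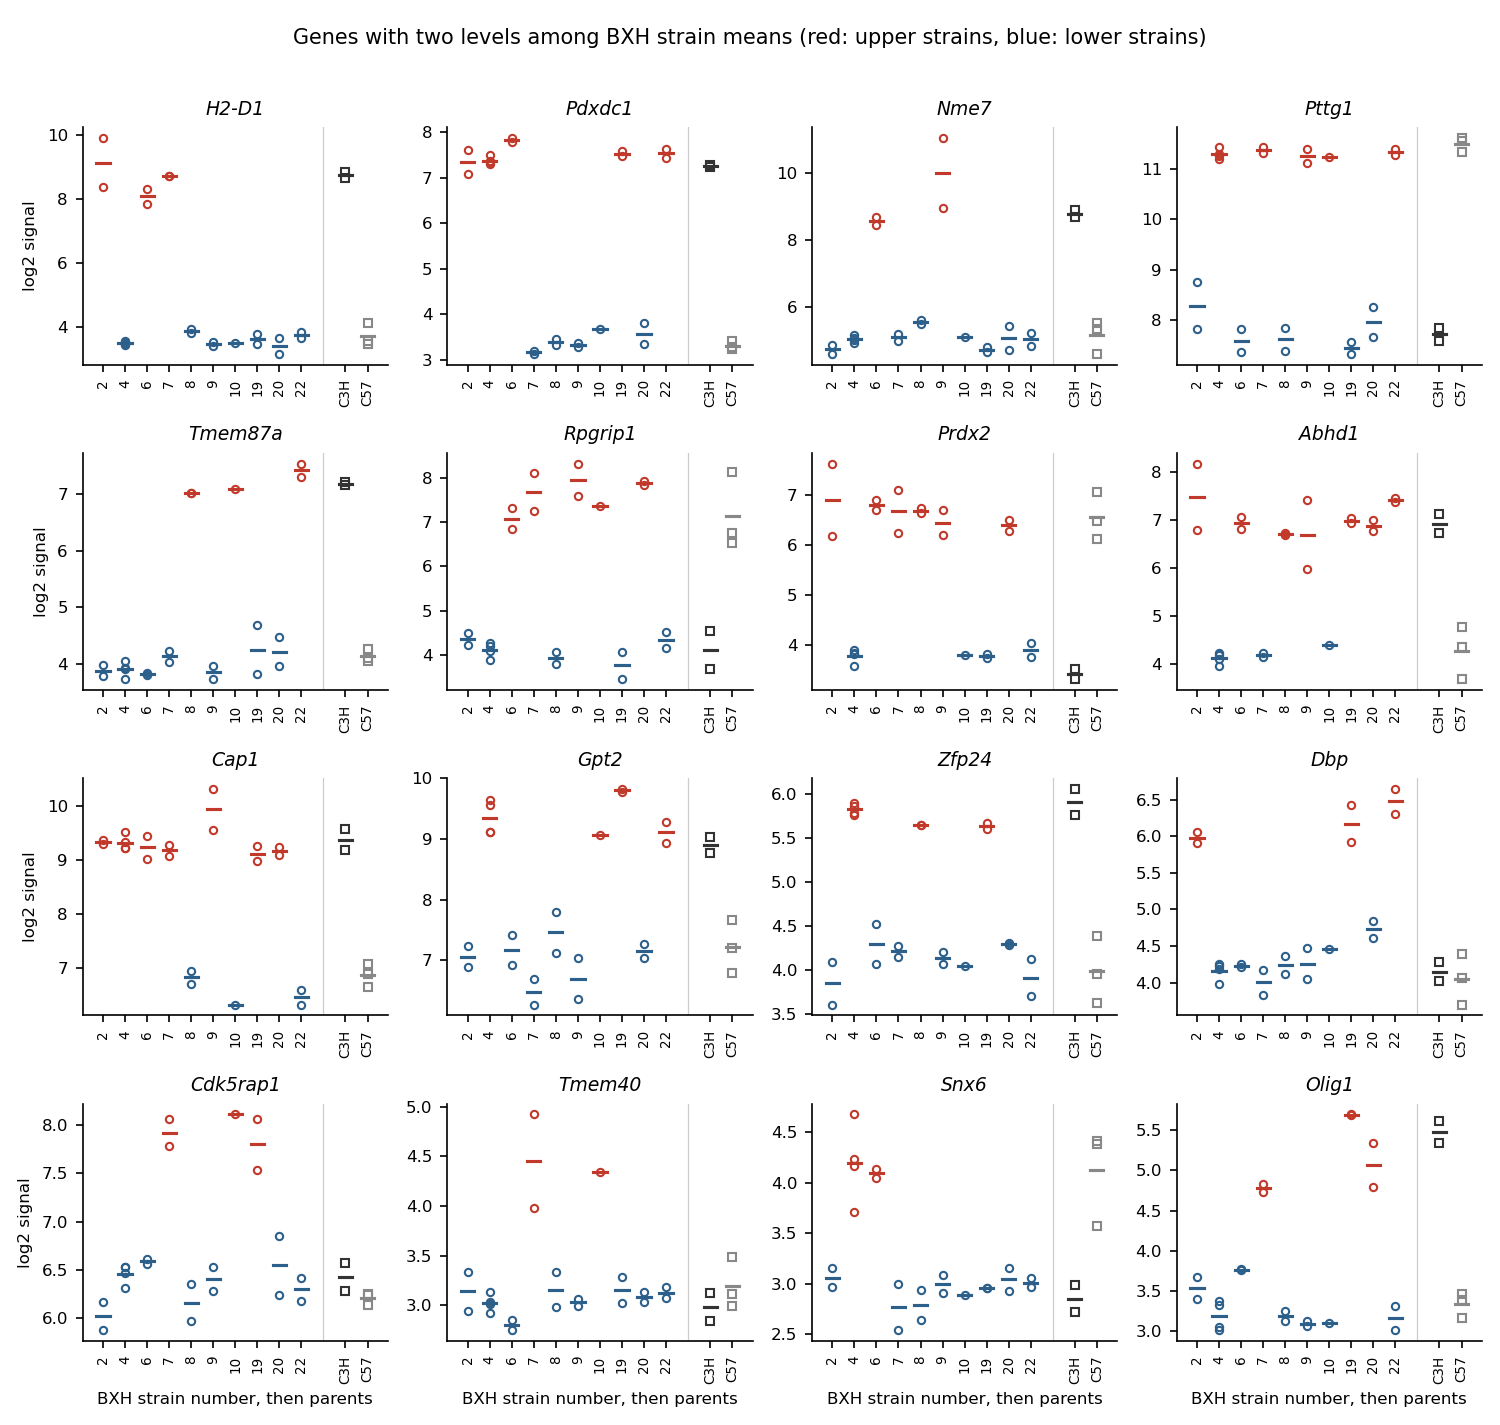
Log2 signal of the 16 named two-level genes by BXH strain number, with the parents C3H/HeJ and C57BL/6J at the right of each panel. Circles and squares are arrays and bars are strain means. In 13 of the 16 genes one parent lies with the red high strains and the other with the blue low strains, and for Dbp, Cdk5rap1 and Tmem40 both parents lie with the low strains.

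With the 2 outlying arrays left out, genes whose BXH2/TyJ arrays disagreed joined the two-level set. Lin7c, a scaffold protein of cell junctions, was then low only in BXH8/TyJ (3.22 and 3.04) and BXH10/TyJ (3.10), with C3H/HeJ at 3.40 and C57BL/6J at 5.21, and BXH2/TyJ had 2.99 in replicate 1 and 6.38 in replicate 2. Glo1, the glyoxalase that detoxifies methylglyoxal and whose gene is known to be duplicated in some mouse strains including C3H/HeJ, averaged 9.33 in BXH20/KccJ, the highest strain, and 8.0 in BXH19/TyJ, the lowest (probe set 1424109_a_at, adjusted p = 0.00659). BXH2/TyJ had 8.27 in replicate 1 and 9.14 in replicate 2 for this probe set, where C3H/HeJ had 9.31 and C57BL/6J 8.05 (adjusted p = 0.00911). Its other 2 probe sets were two-level without the 2 arrays, with BXH2/TyJ, BXH6/TyJ, BXH7/TyJ, BXH20/KccJ and BXH22/KccJ high. For the 30 two-level probe sets of all arrays, in contrast, BXH2/TyJ replicate 1 lay on the side of its mate in every case, which the rule's limit on within-strain spread favours.

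Genes with known alleles in these or other inbred strains were looked up next. Of 12 genes listed for a known allele difference between C3H/HeJ and C57BL/6J, between other inbred strains or in a BXH strain, Glo1 alone passed in all arrays, and Alox5ap and Gpnmb joined it without the 2 arrays that stood apart (adjusted p = 0.0461 and 0.00828). Tlr4, the endotoxin receptor that is defective in C3H/HeJ through a coding change, averaged 5.05 in BXH4/TyJ, the highest strain, and 4.39 in BXH2/TyJ (adjusted p = 0.454), and the parents had 5.14 in C3H/HeJ and 4.91 in C57BL/6J. Nnt, the mitochondrial transhydrogenase that carries a deletion in C57BL/6J, had 9.12 in the single BXH10/TyJ array and averaged 7.28 in BXH7/TyJ. The F test, which the BXH10/TyJ array did not enter, gave an adjusted p of 0.648 for Nnt. Irf8, a myeloid transcription factor known to be mutated in BXH2/TyJ, had 8.01 and 4.21 in the BXH2/TyJ arrays, against 4.48, 5.47 and 7.85 in the other 19 (adjusted p = 0.63). Cd36, H2-Ea, Hc, Apoa2, Abcc6 and Pde6b did not pass in either version.

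Over all probe sets, the parental contrast and the strain effect met in 90 probe sets, which were 34.9% of the 258 parental calls and 32% of the 281 strain effect calls, where 1.26% and 1.16% of all probe sets were called. Without the 2 arrays the 143 shared probe sets were 55.4% of the parental and 11.9% of the 1201 strain effect calls. The parental calls themselves depended on the arrays used: 26 remained with the 5 parental arrays fitted alone, and leaving out 1 parental array gave between 67 (without C3H/HeJ replicate 2) and 1029 (without C57BL/6J replicate 3).

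Dbp, Cdk5rap1 and Tmem40 were two-level with both parents low, and the fourth such probe set, 1438211_s_at, carried no single symbol and split the strains as Dbp did. Cdk5rap1, a mitochondrial tRNA-modifying enzyme, had 7.53, 8.06 and 8.11 in BXH7/TyJ, BXH10/TyJ and BXH19/TyJ, against 5.88, 6.39 and 6.85 in the other 16 arrays, while C3H/HeJ had 6.43 and C57BL/6J 6.21 (adjusted p = 0.807). Tmem40 had 3.98, 4.34 and 4.92 in BXH7/TyJ and BXH10/TyJ, against 2.75, 3.03 and 3.34, and its gap was 0.05 without the single BXH10/TyJ array and 0.83 without BXH7/TyJ replicate 1. The brighter of the Tmem40 probe sets was not two-level. In these genes strains exceeded both parents.

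Dbp, a PAR-domain transcription factor and the best-known output gene of the circadian clock, had the third of these patterns. It had 6.06 and 5.91 in BXH2/TyJ, 6.42 and 5.92 in BXH19/TyJ and 6.64 and 6.31 in BXH22/KccJ, against 3.84, 4.23 and 4.85 in the other 15 arrays, next to 4.15 in C3H/HeJ and 4.05 in C57BL/6J. The circadian clock runs as a loop in which ARNTL (BMAL1) and CLOCK drive Per, Cry, Nr1d and Dbp genes, whose products then repress the loop, so in the aorta of a mouse these genes rise and fall over each day. Against the other strains Dbp differed by 1.75 ± 0.15 in BXH22/KccJ (log2, ± SE, adjusted p = 9.13e-05), by 1.41 in BXH19/TyJ (0.000554) and by 1.20 in BXH2/TyJ (0.00274). These p-values come from the levels that singled out Dbp and describe it only.

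Of the other 11 clock genes, which the choice of Dbp did not use, Per3 and Per2 rose in BXH19/TyJ, where 0.202% of all probe sets did, with differences of 1.43 for Per3 (adjusted p = 0.0463) and 0.98 for Per2 (0.0386), and the median difference of the list, Dbp included, was 0.58 where that of all probe sets was near 0. In BXH22/KccJ Dbp was the only 1 of the 12 called higher in all arrays, where 0.107% of all probe sets were, and the list's median difference was 0.39. In BXH2/TyJ 2 of 12 were called higher, Dbp included, where 4.75% of all probe sets were, and the median was -0.14. Per3 had 7.41 and 7.36 in BXH19/TyJ and 7.35 and 7.21 in BXH22/KccJ, and 6.24 and 5.18 in BXH2/TyJ. Its highest other array was 6.70. Tef, the other PAR-domain factor of the list, had 9.44 and 9.21 in BXH19/TyJ and 9.24 and 9.22 in BXH22/KccJ, with a strain effect at an adjusted p of 0.0375. Without the 2 arrays that stood apart, where 1.02% of all probe sets rose in BXH19/TyJ and 0.82% in BXH22/KccJ, 5 of 12 clock genes, Dbp included, rose and 1, Npas2 (an activator partner of ARNTL), fell in BXH19/TyJ, and 4, Dbp included, rose in BXH22/KccJ.

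BXH2/TyJ shared the high Dbp but not the whole pattern. Cry2 rose there in all arrays (0.58, adjusted p = 0.0412) and had 5.83 and 5.63, while Per2 had 4.59 and 4.30, within the 3.70 to 5.22 of the arrays without high Dbp. Arntl, the activator, had 4.61, 5.14 and 5.39 over the 6 arrays of these 3 strains and 5.27, 5.90 and 7.09 over the other 15, with a strain effect at an adjusted p of 0.109. Nr1d2 had 4.63, 8.23 and 8.68 over the 6 arrays and 6.76, 7.21 and 8.10 over the other 15. Npas2 had 3.44, 3.71 and 5.27, against 3.86, 4.41 and 5.17. For Nr1d2 and for Npas2, 1 of the 6 arrays thus lay outside the range of the others on the side away from the group's median. For Arntl the 2 ranges overlapped. The arrays of the 3 strains carry the sample numbers 1103, 1104, 1120, 1121, 1125 and 1126 as titles. No other BXH array has a number between 1103 and 1126. Among the 84 other strains, Dbp was highest in BXD9/TyJ (mean 6.70) and lowest in MA/MyJ (mean 3.81). The arrays of both strains also have numbers between 1103 and 1126, as has C57BL/6J replicate 3, with 3.70 for Dbp. Whether Dbp follows the sample number within this range was not tested. The labels do not give the time of day at which aortas were taken, so strain and time of collection cannot be told apart.

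**Figure D3:**
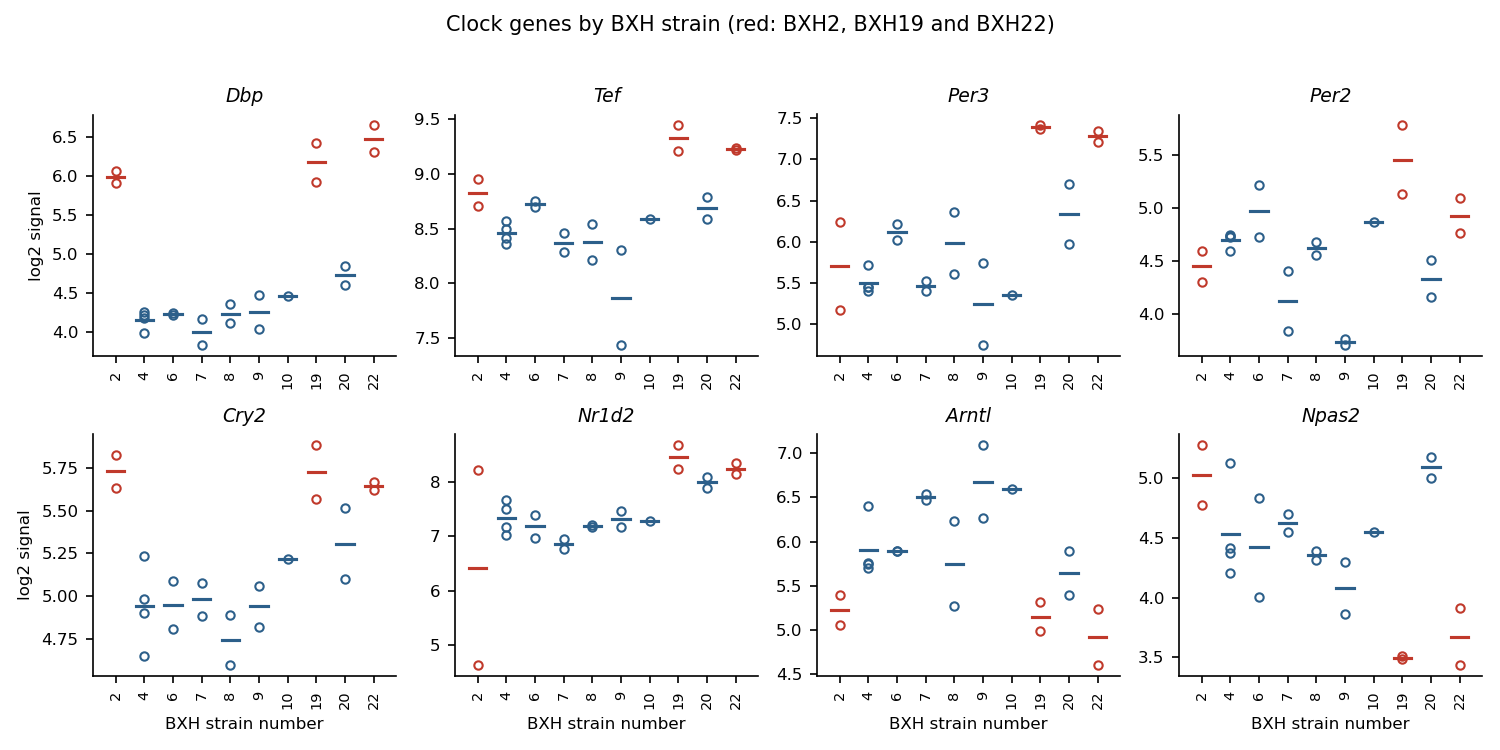
Log2 signal of 8 clock genes by BXH strain number, where circles are arrays, bars are strain means and red marks BXH2/TyJ, BXH19/TyJ and BXH22/KccJ. Dbp lies at 5.91 to 6.64 in the red strains and at 3.84 to 4.85 in all others, Per3 and Tef are highest in BXH19/TyJ and BXH22/KccJ, and Arntl lies at 4.61 to 5.39 in the red strains and at 5.27 to 7.09 in the others.

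The promoters of Per3 and Tef, 2 of the 4 called clock genes, are shown because they hold matches to elements through which such rhythms are known to be driven, the E-box CACGTG, bound by CLOCK and ARNTL, and the D-box TTATGTAA, bound by DBP and TEF. Both strands were searched in the 250 bases before the annotated start (RefSeq, GRCm38.p6), and capitals mark the matches. The Per3 promoter at chr4:151044666-151044915 (minus strand) holds 2 D-boxes, and the 2 annotated Tef promoters at chr15:81802423-81802672 and chr15:81811164-81811413 (plus strand) hold 1 E-box each.
Per3: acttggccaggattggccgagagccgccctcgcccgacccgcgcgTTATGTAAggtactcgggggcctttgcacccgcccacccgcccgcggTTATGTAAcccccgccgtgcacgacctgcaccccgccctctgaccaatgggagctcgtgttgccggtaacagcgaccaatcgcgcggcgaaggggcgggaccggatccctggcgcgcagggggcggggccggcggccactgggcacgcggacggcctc
Tef, first start: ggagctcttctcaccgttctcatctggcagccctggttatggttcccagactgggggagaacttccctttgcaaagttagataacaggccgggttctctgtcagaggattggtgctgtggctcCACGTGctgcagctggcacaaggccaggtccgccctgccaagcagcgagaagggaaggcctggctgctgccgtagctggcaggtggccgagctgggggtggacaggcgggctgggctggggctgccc
Tef, other start: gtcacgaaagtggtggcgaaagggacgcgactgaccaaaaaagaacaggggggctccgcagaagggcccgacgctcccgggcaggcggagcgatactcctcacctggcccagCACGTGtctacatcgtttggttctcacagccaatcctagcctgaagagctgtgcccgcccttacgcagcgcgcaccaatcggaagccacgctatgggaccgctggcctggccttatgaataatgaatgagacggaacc
Of 32851 promoters of this length, 6.02% held the E-box and 0.819% the D-box. The Dbp promoter at chr7:45704997-45705246 (plus strand) held neither in this window, and the promoter of the remaining called clock gene is not shown. A match describes the letters only, and the deposited data hold no binding measurement.

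The second comparison set each strain against the mean of the other 8 replicated strains, to show which strain stands apart and for which genes. The contrasts share their arrays and are given side by side. BXH2/TyJ had by far the most calls, with 1060 probe sets higher (4.75%) and 1343 lower (6.02%), but without the 2 arrays that stood apart it had 76 higher (0.34%) and 59 lower (0.264%), and it then rests on 1 array. In the remaining 8 strains between 27 and 114 probe sets passed with all arrays, and BXH9/TyJ alone of these had fewer without the 2 arrays, 38 instead of 66.

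**Figure D4:**
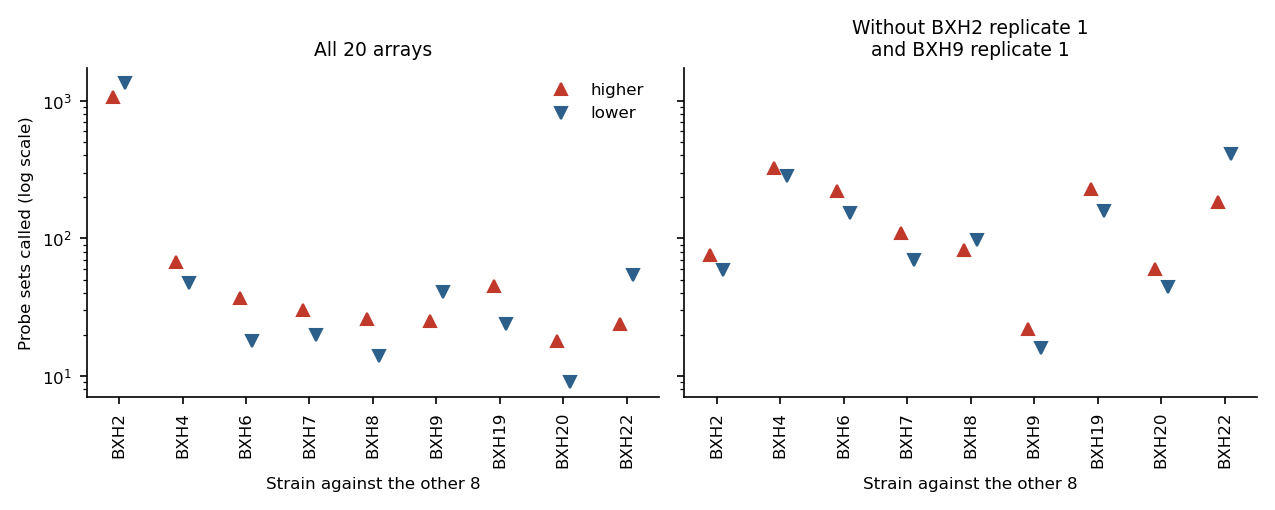
Number of probe sets called higher (triangles up) or lower (triangles down) in each strain than in the other 8 replicated strains, on a log scale, for all 20 arrays and without the 2 arrays that stood apart. BXH2/TyJ falls to 76 and 59 without them, against 1060 and 1343 with them, while BXH22/KccJ has 183 and 412 without them, against 24 and 54 with them.

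BXH22/KccJ was the strain with low smooth muscle genes. It had 24 probe sets higher (0.107%) and 54 lower (0.242%), and 183 (0.82%) and 412 (1.85%) without the 2 arrays. In the contractile list 5 of 13 members fell and none rose, with a median difference of -1.46 where that of all probe sets was near 0. Without the 2 arrays 10 of 13 fell. Cnn1, which restrains actin-activated myosin, had 5.64 and 6.57 in BXH22/KccJ, against 7.43, 8.87 and 10.76 in the other 19 arrays (difference -2.87 ± 0.41, adjusted p = 0.00643). Acta2 had 11.05 and 11.43 against 11.82, 12.39 and 13.13 (-1.22, adjusted p = 0.0057), and Myh11, smooth muscle myosin heavy chain, 7.31 and 7.66 against 8.28, 9.35 and 10.18 (-1.92, adjusted p = 0.0159). The BXH22/KccJ arrays were the lowest of all 21 for each of the 3 genes.

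The largest fall in this strain was that of Itga8, the integrin chain of vascular smooth muscle, with 3.55 and 3.76 against 4.70, 6.86 and 8.01 (-3.11 ± 0.52, adjusted p = 0.017). Npnt, which encodes nephronectin, a ligand of that integrin, fell with it (4.13 and 4.41, difference -2.62, adjusted p = 0.0131). Ppp1r14a, an inhibitor of myosin phosphatase, fell by 2.48, Csrp1, a LIM protein of smooth muscle, by 2.13, and Col18a1 and Ccn3, both secreted into the matrix, by 2.15 and 2.14. Myl9 also passed in the contractile list (-1.88, adjusted p = 0.0153). Des (-0.10) and Synpo2 (-0.44) lay close to the other strains, and Tpm2 (-1.46, adjusted p = 0.0891), Lmod1 (-1.73, 0.0711) and Actg2 (-2.26, 0.0609) missed the threshold in all arrays and passed without the 2 arrays.

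Of 17 elastic fibre and matrix genes 1 fell in BXH22/KccJ, and 6 did without the 2 arrays (median difference -0.48). This was Eln, with 7.51 and 8.03 against 8.61, 9.44 and 10.85 (-1.87, adjusted p = 0.017). Both calcification-linked genes that passed also fell: Mgp, matrix Gla protein, an inhibitor of arterial calcification (-1.12, adjusted p = 0.00523; 10.19 and 10.48 against 10.82, 11.43 and 12.06), and Sost, the Wnt inhibitor sclerostin (-1.96, adjusted p = 0.0374). Bfar, an apoptosis regulator of the endoplasmic reticulum membrane, had 4.13 and 3.98 on probe set 1426488_at, while BXH2/TyJ replicate 1 had 4.43 and the remaining strains 6.77 or more (-3.0, adjusted p = 0.00643). Among the genes that rose was Mgst2, a microsomal glutathione transferase (7.50 and 7.56, difference 1.77, adjusted p = 0.0275), whose call was lost in 5 of 9 alternative settings.

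Endothelial (median difference 0.24, none of 13 called), adventitial fibroblast (-0.12, none of 7) and brown adipocyte genes (0.16, none of 7) did not move with the contractile genes in BXH22/KccJ. Its thymocyte score was -0.88 and 2.48 in the 2 arrays, and with the 3 cell scores as covariates 148 probe sets were called in this strain, against 78 without them. The 3′ to 5′ actin difference was 1.80 and 2.17 log2 units in BXH22/KccJ, against 0.93, 1.55 and 1.86 in the other 19 arrays. The Gapdh difference was 0.32 and 0.51, against 0.062, 0.24 and 0.46. BXH22/KccJ replicate 1 had the highest value of all BXH arrays for both controls. Both measures overlapped between the groups, and their part in the result was not tested.

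Genes of fatty acid synthesis were lower in BXH19/TyJ. It had 45 probe sets higher (0.202%) and 24 lower (0.107%), and 228 (1.02%) and 159 (0.712%) without the 2 arrays. Scd1, which puts the double bond into stearic acid, had 6.19 and 7.08 on probe set 1415965_at, against 9.98, 10.93 and 11.42 in the other replicated strains (-4.19 ± 0.25, adjusted p = 3.64e-06). C3H/HeJ had 10.67 and C57BL/6J 10.09, so neither parent was low. The second Scd1 probe set, 1415964_at, fell by less, with 11.81 and 12.05 against 12.37, 13.21 and 13.32 (-1.20).

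Fasn, fatty acid synthase, had 11.04 and 11.06 in BXH19/TyJ, against 11.82, 12.51 and 12.80 in the other 19 arrays (-1.44, adjusted p = 0.000193). Acly, ATP citrate lyase, which supplies its substrate, had 8.84 and 9.06 against 9.65, 10.93 and 11.93 (-1.86, adjusted p = 0.000193). These 3 enzymes were the members that fell among 12 of the sterol and fatty acid list (median difference -0.55), and Idi1 and Elovl6 joined them without the 2 arrays. Cholesterol synthesis genes such as Sqle (-0.64, adjusted p = 0.574), Lss (-0.33, 0.821) and Fdft1 (-0.24, 1) did not pass. Adipocyte genes as a list had a median difference of 0.16 in BXH19/TyJ with none of 11 called, and the fat hormone gene Adipoq differed by 0.18 (adjusted p = 1). Me1, the malic enzyme that supplies NADPH to this synthesis, looked up after these values had been seen, did not pass (-1.11, adjusted p = 0.245). The 3′ to 5′ difference of the Gapdh control was 0.46 and 0.41 in BXH19/TyJ, against 0.062 to 0.51 in the other 19 arrays, and that of actin 1.84 and 1.82, against 0.93 to 2.17, and their part in the result was not tested.

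Several genes rose in BXH19/TyJ. Hmox1, the haem-degrading oxygenase induced by oxidative stress, had 7.29 and 7.40, against 4.10, 4.77 and 6.92 (2.49, adjusted p = 0.00289), the 6.92 being BXH2/TyJ replicate 1. Cyp2e1, a cytochrome P450 of fat and liver, had 11.87 and 11.98 against 9.80, 10.78 and 11.79 (1.03, adjusted p = 0.0239), and both were the members of 16 xenobiotic genes that passed. Rbp7 had 9.92 and 9.74, the highest BXH values (3.04, adjusted p = 0.000251), and Bcat2, which starts the breakdown of branched-chain amino acids, 8.98 and 9.20 (2.05, adjusted p = 0.000933). H2-Q10, a secreted class I molecule, fell, with 5.72 and 5.85 against a lowest value of 5.90 elsewhere (-2.63, adjusted p = 0.00798).

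**Figure D5:**
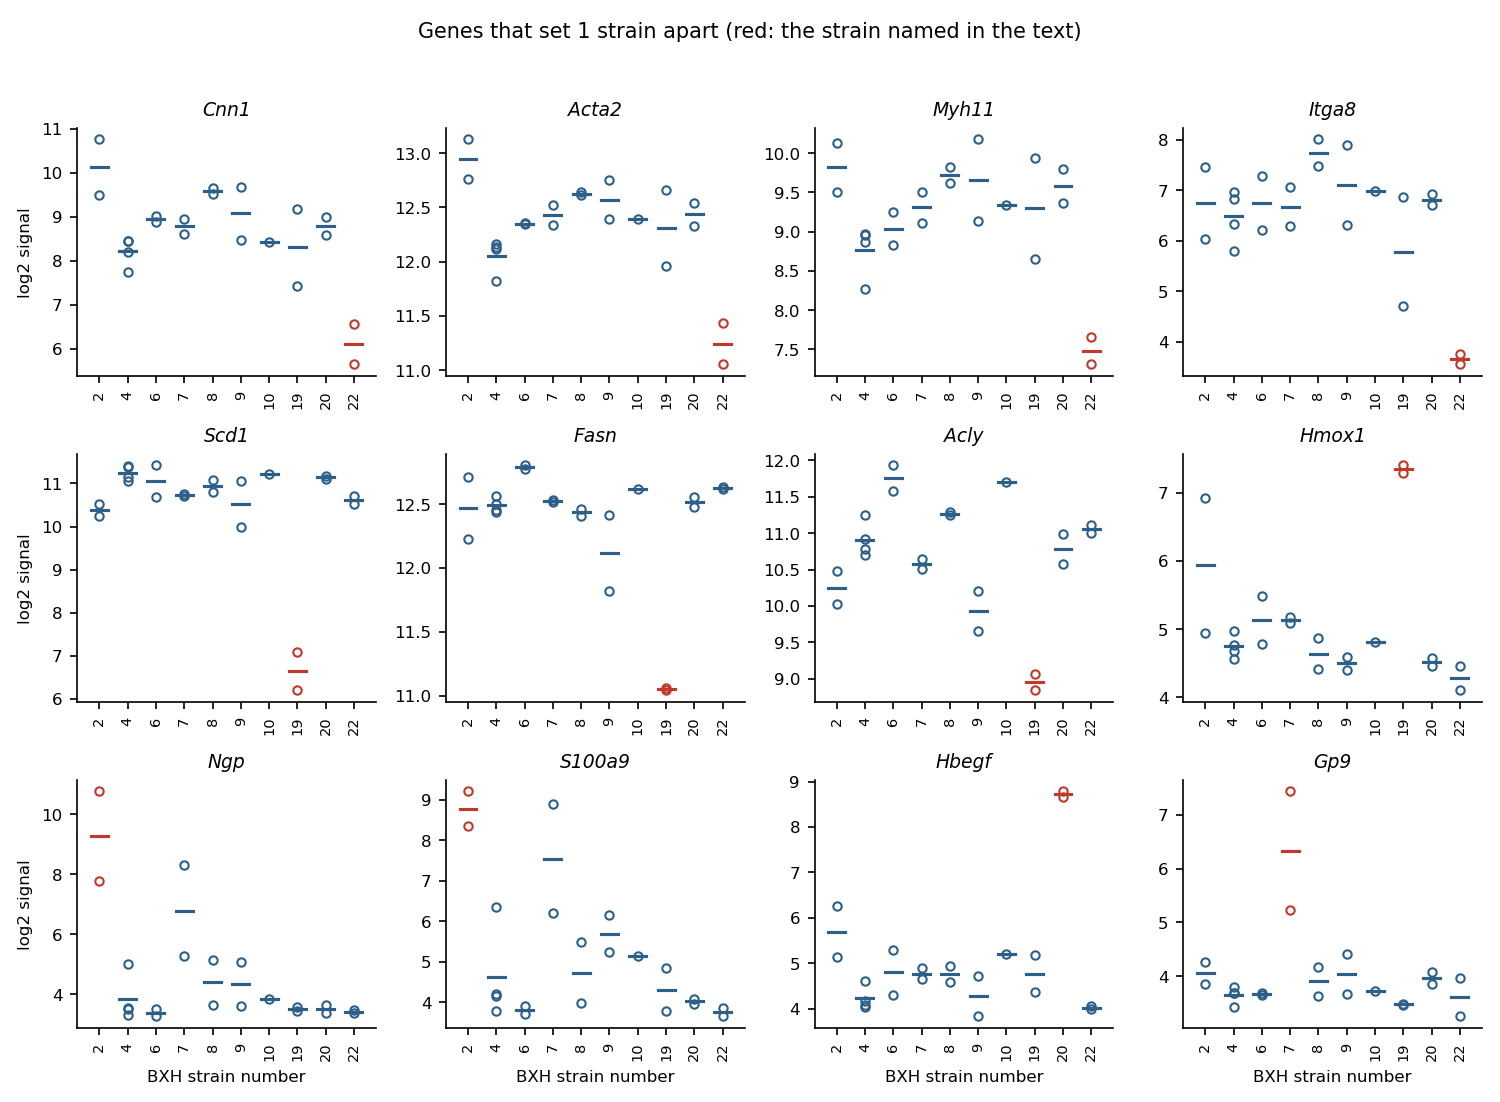
Log2 signal of 12 genes that set 1 strain apart, by BXH strain number, where circles are arrays, bars are strain means and red marks the strain described. Cnn1, Acta2, Myh11 and Itga8 are lowest in BXH22/KccJ, Scd1, Fasn and Acly are lowest and Hmox1 is highest in BXH19/TyJ, Ngp and S100a9 are highest on average in BXH2/TyJ, Hbegf is highest in BXH20/KccJ and Gp9 in BXH7/TyJ.

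Neutrophil, elastic fibre and contractile genes were among those that rose in BXH2/TyJ. Of the 12 neutrophil and granule genes 10 rose (median difference 2.44), where 4.75% of all probe sets did, but none passed without the 2 arrays (median 0.92). Of the 17 elastic fibre and matrix genes 10 rose (median difference 0.97), among them Eln (1.36, adjusted p = 0.029) and Loxl1, a cross-linking enzyme of elastin (1.37, adjusted p = 0.0141). Of the 13 contractile genes 5 rose (median difference 1.01), among them Cnn1 (1.65, adjusted p = 0.0346). None of these passed without the 2 arrays either, where the medians were 0.87 and 0.79. Ngp had 10.77 and 7.78 in BXH2/TyJ, against 3.26, 3.57 and 8.30 in the other 19 arrays (5.13 ± 0.74, adjusted p = 0.00572). S100a9 had 9.21 and 8.36 against 3.66, 4.16 and 8.89 (3.97, adjusted p = 0.0101). Camp (cathelicidin), Lcn2 (lipocalin) and Chil3, all granule or myeloid products, had 8.41 and 5.40, 9.36 and 6.12, and 7.72 and 5.98, with replicate 1 the higher each time.

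Replicate 2 of BXH2/TyJ was above the median of the other strains for each of these genes, but BXH7/TyJ replicate 1 was as high, with 8.30 for Ngp and 8.89 for S100a9. In replicate 2 alone the difference was 3.73 for Ngp (adjusted p = 0.0627) and 1.71 for Chil4 (0.0371). Mpo and Elane, enzymes of immature granules, had 6.34 and 3.70, and 6.28 and 3.87, so that replicate 2 was at or below the highest of the other arrays (3.70 and 4.17). Macrophage genes showed a median difference of -0.01 with none of 18 called.

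Genes that fell in BXH2/TyJ in both of its arrays included Rbp7 (4.61 and 4.85, against a lowest value of 5.30 in the other strains; -2.70, adjusted p = 0.00123) and Aldh1a7 (5.37 and 6.21, difference -2.62, adjusted p = 0.00249), both of retinoid or aldehyde metabolism. S100b, a calcium-binding protein of Schwann cells and fat, had 4.39 and 4.61 against a lowest value of 5.34 (-2.21, adjusted p = 0.00812). The other Schwann cell genes Sox10, Pmp22 and Mbp had no strain effect (adjusted p = 0.703, 0.782 and 0.915). Rbp7, Aldh1a7 and S100b also passed without the 2 arrays (adjusted p = 5.74e-05, 0.000208 and 0.0134).

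BXH4/TyJ, with 4 arrays the best measured strain, had 67 probe sets higher (0.3%) and 47 lower (0.211%), and 326 (1.46%) and 283 (1.27%) without the 2 arrays. Cd209b, a lectin of marginal zone macrophages, had 6.84 to 7.62 over the 4 arrays, against 3.17, 3.81 and 6.94 in the other 17 (2.87 ± 0.56, adjusted p = 0.0368), and its call was lost in 8 of 11 alternative settings. Ccr6, a chemokine receptor of B cells and dendritic cells, had 5.42 to 7.63 against 3.61 to 5.21, without overlap (2.01, adjusted p = 0.0143). The B cell list had a median difference of 1.36 with none of 8 members called, Ms4a1 (CD20) being closest (2.16, adjusted p = 0.0848). Macrophage genes had a median difference of 0.02 in this strain.

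Erythroid genes fell in BXH4/TyJ. Alas2 had 6.38 to 6.87 over its 4 arrays, against 7.03, 9.27 and 11.35 in the other 17 (-2.31, adjusted p = 0.00163), and the Hba-a1 probe set 1452757_s_at 12.18 to 12.54 against 12.56 to 13.44 (-0.60, adjusted p = 0.00836). Outside the erythroid list, Erdr1 had 3.88 to 4.25, below every other BXH array (-3.83 ± 0.15, adjusted p = 1.17e-08), and Abhd1 fell by 2.55. Of the 4 erythroid genes measured 2 fell, and Car2 (0.17) and Slc4a1 (-0.87) did not pass. Ncan, the proteoglycan neurocan, rose by 2.25 (adjusted p = 0.000148), being high in BXH22/KccJ too (1.93, adjusted p = 0.013), while C3H/HeJ (4.15) and C57BL/6J (3.61) were both low.

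BXH7/TyJ had 30 probe sets higher (0.134%) and 20 lower (0.0896%), or 110 (0.493%) and 69 (0.309%) without the 2 arrays. Gp1bb and Gp9, subunits of the platelet receptor for von Willebrand factor, had 8.03 and 5.59, and 7.43 and 5.23, against highest values of 5.39 and 4.41 elsewhere (2.74, adjusted p = 0.0403, and 2.53, adjusted p = 0.0101). Clec1b, the platelet podoplanin receptor, had 7.99 and 5.74 against at most 5.31 (2.63, adjusted p = 0.0109), and Nrgn 8.45 and 6.71 against at most 5.98 (2.58, adjusted p = 0.0207). Each of Gp1bb, Clec1b and Nrgn lost its call in 3 alternative settings. No platelet list had been set, and of the platelet genes Pf4, Ppbp and Itga2b, looked up after these values had been seen, Pf4 passed (1.73, adjusted p = 0.0348) and Ppbp (2.67, 0.0931) and Itga2b (1.82, 0.164) did not. Replicate 1 was the higher array for each, and it also had the highest erythroid score, 1.78, against 0.23 in replicate 2. The complement gene C4b fell in BXH7/TyJ (7.46 and 6.44, difference -1.61, adjusted p = 0.0338).

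BXH8/TyJ had 26 probe sets higher (0.116%) and 14 lower (0.0627%), or 82 (0.367%) and 98 (0.439%) without the 2 arrays. Nr4a1, an immediate early nuclear receptor, had 10.63 and 10.60, above every array of the other replicated strains (2.49 ± 0.32, adjusted p = 0.00245), and Irf4, a lymphoid and adipose transcription factor, 8.04 and 7.57 against at most 5.75 (3.0 ± 0.30, adjusted p = 0.000548). Fosb rose with them (1.10, adjusted p = 0.00301), which made 2 of the 10 immediate early and heat shock genes (median difference 0.85), and Fos (0.15, adjusted p = 1) and Egr1 (0.22, 1) did not pass. The MHC region list had a median difference of 0.94 with 1 of 19 higher, and without the 2 arrays 5 were higher, among them H2-K1 and H2-Q4, and 1, Glo1, was lower. Interferon response genes had a median difference of 0.06 there with none of 15 called.

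BXH6/TyJ had 37 probe sets higher (0.166%) and 18 lower (0.0806%), or 220 (0.985%) and 153 (0.685%) without the 2 arrays. Besides the two-level genes H2-D1 and Nme7, Erdr1 rose (9.94 and 10.17, difference 2.87, adjusted p = 1.24e-05), as did Cxcl17, a mucosal chemokine (6.80 and 5.80, against at most 5.24 elsewhere; 2.46, adjusted p = 0.027, lost in 5 of 8 alternative settings). Ltf, lactoferrin, differed by 4.52 (adjusted p = 0.123) and passed without the 2 arrays (4.86, adjusted p = 0.00923), while the other 11 neutrophil genes did not. Klf10, a Krüppel-like factor, fell by 1.26 (adjusted p = 0.0422), a call lost in 6 of 9 alternative settings.

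BXH20/KccJ had the fewest calls in all arrays, 18 higher (0.0806%) and 9 lower (0.0403%), or 60 (0.269%) and 44 (0.197%) without the 2 arrays, when BXH9/TyJ had fewer. Hbegf, a growth factor of smooth muscle and macrophages that binds the EGF receptor, had 8.78 and 8.66, against at most 6.25 in the other replicated strains (4.05 ± 0.31, adjusted p = 2.18e-05). The second Hbegf probe set, 1418349_at, had 7.09 and 6.85 against at most 4.71. C3H/HeJ had 8.44 and C57BL/6J 5.29 (adjusted p = 3.83e-09), so BXH20/KccJ was the 1 BXH strain at the level of C3H/HeJ, which had the highest mean of the 84 other strains. Baiap2l1 had 8.78 and 8.37 against at most 7.49 (3.26, adjusted p = 0.000779), and Gbp2b, an interferon-inducible GTPase, rose by 2.20 (adjusted p = 0.0128). Apoe, the apolipoprotein of remnant clearance, fell by 0.81 (adjusted p = 0.0385; 9.15 and 9.05 against a lowest value of 9.22), and lost its call in 8 of 9 alternative settings.

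BXH9/TyJ had 25 probe sets higher (0.112%) and 41 lower (0.184%), and 22 (0.0985%) and 16 (0.0717%) without the 2 arrays, when it rests on 1 array and takes its spread from the other strains. With the 3 cell scores as covariates 12 probe sets were called, against 66 without them. Its leading genes were Nme7 (11.03 and 8.95, difference 4.51, adjusted p = 2.17e-05), Pdxdc1 and Rpgrip1, all two-level. Ifi202b, an interferon-inducible gene of the Ifi200 cluster, rose by 1.67 (adjusted p = 0.0142) and did not pass without the 2 arrays (0.93, adjusted p = 0.0987). Rbp4, the plasma retinol carrier, fell by 1.78 (adjusted p = 0.0392) and did not pass without them either (-0.74, adjusted p = 0.274). Bcat2 fell by 1.63 (adjusted p = 0.00904) and kept its call without them (-1.51, adjusted p = 0.00176), on that 1 array.

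A single-strain class, with the same gap rule but exactly 1 strain apart from all others, held 56 probe sets (0.251%), and 78 (0.349%) without the 2 arrays. BXH10/TyJ was the high strain for 44 of the 56, on 1 array with no replicate check. They included Lce3a (9.51), Sprr3 (9.75) and Defb4 (8.20), a cornified envelope protein, a proline-rich protein of squamous epithelium and a beta-defensin of epithelia, and the next highest BXH arrays for the 3 genes had 7.30, 6.67 and 5.64 and belonged to BXH4/TyJ replicate 3, which had the second highest squamous score (1.65). The other 12 probe sets included Scd1 (gap 3.75) and Fasn (1.06) low in BXH19/TyJ. Hbegf (3.02) was high in BXH20/KccJ, Gp9 (2.27) in BXH7/TyJ, Sult1d1 (1.57) and Sfi1 (1.20) in BXH6/TyJ and Dnlz (1.54) in BXH2/TyJ. With all arrays, Gp9, Sult1d1 and Dnlz did not pass the F test (adjusted p = 0.0842, 0.0596 and 0.0629). They also left the class without the 2 arrays, while Scd1, Fasn, Hbegf and Sfi1 passed and stayed. Of the 12, 4 were high in BXH2/TyJ, and an unnamed one of these had a wider gap than Scd1. Another, low in BXH22/KccJ, is not named.

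The 4 BXH4/TyJ arrays allowed a check of how far arrays of 1 strain with distant sample numbers differ. The arrays numbered 1144 and 1145 differed from those numbered 974 and 975 in 0 of 22327 probe sets by the limma contrast, with 293 (1.31%) at an unadjusted p below 0.05. The skeletal muscle score was 1.75 and 0.50 in the arrays numbered 1144 and 1145, against -2.55 and -3.48 in those numbered 974 and 975, so a count of 0 from 2 arrays against 2 does not show that the pairs are alike. The most alike arrays of the family were a BXH4/TyJ pair (r = 0.994), which still differed by up to 4.67 log2 units for single probe sets and were kept as separate arrays.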

How the data were processed

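The deposited values are log2 signals, 1 per probe set and array, which the authors made with GCOS and RMA, per the submitters' processing notes. For both tools the version, and for the probe sets the genome build, is not given in the sources used here. RMA adjusts background, makes the distributions of the arrays alike and summarises each probe set, so differences that touch all probe sets alike are not kept. Of 22416 probe sets 89 controls were left out and 22327 tested, 17783 of them with 1 gene symbol (11725 genes), 284 with several and 4260 not listed in the platform annotation. The RefSeq gene table of GRCm38.p6 held 17759 of the first by Entrez ID and changed 0 symbols.

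Strains were fitted with limma 3.58.1 in R 4.3.3, with version 1.17.8 of data.table, without covariates, and every adjusted p is Benjamini-Hochberg over all probe sets, with 0.05 as threshold. Strain contrasts set each BXH strain against the mean of the other 8. The parental contrast came from a fit of the replicated strains outside BXH without BXD32/TyJ. Only probe sets with 1 symbol were named: the 20 genes with the largest between-strain SD, up to 20 two-level genes, up to 3 single-strain genes a strain, the 5 largest changes each way per strain contrast (10 for BXH2/TyJ and BXH22/KccJ), and list members. Where several probe sets measured a gene, the one with the largest value stood for it. The members and gene lists were chosen with earlier results of these data known.

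Alternatives were another prior, array weights, quantile normalisation, a level filter, 1 probe set per gene, array number and cell scores as covariates, shared spread, other gap rules, and leaving out arrays or strains. The procedures were tested on simulated data. The numbers in the descriptions did not pair the arrays: deviations of arrays with the same number in different strains correlated at a median of -0.015 (n = 32 pairs, across genes).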

Additional observations from a re-analysis of the deposited data

Results flagged for a closer look

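BXH4/TyJ, the only BXH strain with 4 arrays, was examined for an array far from the other 3, in 37 values of named genes and list scores. In 5 of them the gap to the nearest array exceeded Dixon's 95% critical share of the range, and chance flags about 1 in 20 groups. Ngp was 5.01 in replicate 2 and at most 3.83 in the others (gap share 0.855). S100a9 was 6.36 there (0.834) and S100a8 6.37 (0.874), so the 3 neutrophil genes singled out the same array. Alas2 was lowest in replicate 1, at 6.38, with 6.80 to 6.87 in the others (0.866). The clock score was highest in replicate 3, at -0.0068, with -0.171 to -0.161 in the others (0.936).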

How the results depend on the processing

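The 281 probe sets with a strain effect became 572 when all replicated strains of the series shared the spread, 852 with array weights, 135 with 1 probe set per gene, 449 with thymocyte, squamous and skeletal muscle scores as covariates, 29 within array numbers up to 1038 and 80 within those from 1067, and 143 or 134 with BXH4/TyJ arrays 974 and 975 or 1144 and 1145 only. They became 551 without strain BXH2/TyJ, 88 without BXH4/TyJ, 491 without BXH9/TyJ, and 1201 without BXH2/TyJ replicate 1 and BXH9/TyJ replicate 1. Leaving out 1 array gave 181 (without BXH22/KccJ replicate 1) to 7247 (without BXH2/TyJ replicate 2), with 1767 without BXH9/TyJ replicate 2, 536 without BXH2/TyJ replicate 1, 423 without BXH9/TyJ replicate 1 and 183 without BXH22/KccJ replicate 2. The highest counts thus arose when an outlying array stood alone for its strain, whose spread was then taken from other strains. With the description number as replicate block, which did not pair the arrays, the strain effect had 165, and contrasts 23 (BXH6/TyJ), 19 (BXH7/TyJ), 24 (BXH8/TyJ), 2 (BXH9/TyJ), 4 (BXH19/TyJ), 12 (BXH20/KccJ) and 136 (BXH22/KccJ).

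Contrast totals changed likewise. Shared spread gave BXH9/TyJ 134, and probe sets above the median level gave BXH6/TyJ 36 and BXH7/TyJ 33. Cell scores as covariates gave BXH2/TyJ 4288, BXH9/TyJ 12 and BXH22/KccJ 148. The array number block as covariate gave 112 (BXH2/TyJ), 24 (BXH6/TyJ), 8 (BXH7/TyJ), 23 (BXH8/TyJ), 8 (BXH9/TyJ), 37 (BXH19/TyJ), 7 (BXH20/KccJ) and 35 (BXH22/KccJ). Without the 2 outlying arrays totals were 135 (BXH2/TyJ), 609 (BXH4/TyJ), 373 (BXH6/TyJ), 179 (BXH7/TyJ), 180 (BXH8/TyJ), 38 (BXH9/TyJ), 387 (BXH19/TyJ), 104 (BXH20/KccJ) and 595 (BXH22/KccJ). Leaving out 1 array of the strain gave 31 (without replicate 1) to 9525 (without replicate 2) in BXH2/TyJ, 9 (without replicate 1) to 3756 (without replicate 2) in BXH9/TyJ, 15 (without replicate 1) to 87 (without replicate 2) in BXH7/TyJ, 58 to 60 in BXH4/TyJ, 6 to 20 in BXH6/TyJ, 7 to 11 in BXH8/TyJ, 18 to 21 in BXH19/TyJ, 11 in BXH20/KccJ and 9 to 13 in BXH22/KccJ.

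The 30 two-level probe sets became 18 with a smallest gap of 1.5, 16 with a gap of 6 times the within-strain SD, 47 without strain BXH2/TyJ, 11 with 1 probe set per gene, and 28 to 46 without 1 array (46 without BXH2/TyJ replicate 2). The 26 with opposite parents became 40 without the 2 outlying arrays. The 258 parental calls became 26 with the 5 parental arrays alone, and 67 (without C3H/HeJ replicate 2) to 1029 (without C57BL/6J replicate 3) without 1 array. The BXH4/TyJ pairs differed in 0 to 2 probe sets (2 without replicate 3). Quantile normalisation (283) and the trended robust prior (292) left the strain effect close to 281. No direction reversed: named contrasts stayed called in 768 of their alternatives and lost the call in 227, named strain effects stayed in 751 and lost it in 102. Apart from the fewer or outlying arrays and probe sets that each alternative states, the cause was not tested. With mostly 2 arrays a strain, small differences could not be detected.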

Other observations

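Y-linked genes were higher in BXH20/KccJ and BXH22/KccJ than in the TyJ strains of the family. Eif2s3y, a translation factor subunit encoded on the Y chromosome, had 8.34, 8.36 and 8.40 (lowest, median and highest) in the 4 arrays of BXH20/KccJ and BXH22/KccJ, against 6.73, 7.30 and 7.75 in the other 16 arrays without BXH2/TyJ replicate 1, and C3H/HeJ had 8.37 and C57BL/6J 6.09. The groups did not overlap. Kdm5d, a Y-linked histone demethylase, had 5.28 to 5.64 in those 4 arrays, against 4.26 to 5.41, next to 5.58 in C3H/HeJ and 4.22 in C57BL/6J. Uty, another Y-linked demethylase family member, had 4.62 to 5.23, against 3.77 to 4.50, next to 5.02 in C3H/HeJ and 3.90 in C57BL/6J. The strain effect had adjusted p-values of 0.299, 0.230 and 0.188 for these genes in all arrays, and of 0.00267, 0.0124 and 0.0970 without BXH2/TyJ replicate 1 and BXH9/TyJ replicate 1 (limma's moderated F test). This grouping of arrays was chosen after the values had been seen.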
